A study of Mus musculus with 16 samples.

Results

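Haematoendothelial progenitors are the mesodermal cells from which the first blood and the first vessels of the mouse embryo arise. In these data they were the cells to which the authors' label transfer from an atlas of gastrulation gave that name. Only cells that passed RNA quality control and were not called doublets were kept. The type held 206 of 37841 cells, or 0.544%, and 192 of the 206 came from embryonic day (E) 7.5. The cells came from chimeric embryos made by injecting *Stat3* null embryonic stem cells (ESCs) marked with tdTomato into wild-type (WT) host blastocysts, both on the CD1 background. Embryos were pooled at E7.5 (in a large and a small class) and at E8.5, taken singly at E9.5, dissociated and sorted on tdTomato. The tdTomato-positive fraction is called null and the tdTomato-negative fraction WT, and both fractions grew in the same embryos. In the null cells a neomycin cassette replaces exons of *Stat3* on both alleles, and the null cells came from tdTomato ESCs that had been drug-selected and picked as colonies. How many such lines were injected is not given in the sources used here, and the mutation cannot be told apart from other features of the injected cells. Of the E7.5 cells, WT libraries A and B gave 8 and 85, and null libraries A and B gave 76 and 23. Letters only name the libraries.

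In the proximal mesoderm and yolk sac, the VEGF receptor KDR (FLK1) marks mesoderm with blood and vessel potential. The ETS factor ETV2 then switches on the haematoendothelial program, and the bHLH factor TAL1, with its partner LMO2 and with GATA2, carries cells towards blood. RUNX1 and GATA1 rise as primitive blood progenitors form, while CDH5, PECAM1 and TIE1 mark the endothelial fate. STAT3 is the transcription factor that transmits LIF and IL-6 family signals through gp130 and JAK kinases.

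The sequence just before the start of *Etv2*, the factor that switches on the program of this type, is shown first, as 250 bases from RefSeq on GRCm38.p6, chr7:30635853-30636102, minus strand, with GGAA and its reverse complement TTCC, the core letters that ETS factors recognise, in capitals.
Etv2: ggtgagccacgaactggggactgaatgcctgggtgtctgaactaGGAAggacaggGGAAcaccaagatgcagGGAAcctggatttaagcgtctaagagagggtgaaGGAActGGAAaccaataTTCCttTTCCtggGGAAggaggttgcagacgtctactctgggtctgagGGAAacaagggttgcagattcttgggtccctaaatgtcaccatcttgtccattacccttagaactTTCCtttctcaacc
This window holds 10 such matches on either strand, and 93.4% of 32851 RefSeq windows hold at least 1. The median over all windows is 3 matches, and 0.192% of windows hold as many as *Etv2*. *Grb10*, the gene with the largest difference between genotypes, has 2 such windows, shown with CG dinucleotides in capitals because *Grb10* is imprinted and CG sites carry the methylation of imprinted genes. They lie at chr11:12037421-12037670 and chr11:12027972-12028221, both on the minus strand.
Grb10, first start: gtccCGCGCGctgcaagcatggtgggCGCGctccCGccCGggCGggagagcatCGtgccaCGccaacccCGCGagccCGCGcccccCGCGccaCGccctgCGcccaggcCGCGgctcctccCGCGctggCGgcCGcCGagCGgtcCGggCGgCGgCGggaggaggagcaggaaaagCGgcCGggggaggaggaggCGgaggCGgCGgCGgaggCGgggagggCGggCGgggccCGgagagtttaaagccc
Grb10, second start: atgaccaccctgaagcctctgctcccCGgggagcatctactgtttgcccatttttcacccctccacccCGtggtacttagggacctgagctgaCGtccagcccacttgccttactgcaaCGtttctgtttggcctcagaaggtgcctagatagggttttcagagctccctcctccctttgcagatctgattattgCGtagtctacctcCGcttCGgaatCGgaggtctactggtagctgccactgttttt
The first window holds 40 CG dinucleotides and the second holds 8, against a median of 6 over all windows, of which 92.1% hold at least 1. The motif TTCNNNGAA, which STAT dimers bind and which reads the same on both strands, was searched in the full windows, from 250 bases before to 50 after the start. It occurs in 8.30% of all windows and in 0 of the 14 windows of the 7 genes that differed between genotypes and have an entry. The counts of UMIs below come from 3′ ends and do not tell which start was used.

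The E7.5 cells expressed the markers of their label. *Kdr* (chr5:75932827-75978458) had at least 1 unique molecular identifier (UMI, 1 counted transcript) in 100% of the WT A cells, 97.6% of WT B, 98.7% of null A and 100% of null B. In Ectoderm cells of the same libraries, a type that should lack it, between 3.72% and 5.93% had one. *Tal1* (chr4:115056426-115071755) was seen in the same 97.6% to 100% of the cells, against 2.20% to 6.44% of Ectoderm. *Etv2* (chr7:30633616-30635852) had a UMI in 75% of WT A, 76.5% of WT B, 89.5% of null A and 95.7% of null B. Ectoderm gave 16.5% to 41.7% for *Etv2*. Once every cell was thinned to 10000 UMIs, the share with *Etv2* was 60.9% to 75% in the progenitors and 5.49% to 6.20% in Ectoderm. All 3 markers were found together in 159 of the 192 cells, and 31 cells had no *Etv2*. Median depth per cell was 43265, 30233, 45848.5 and 65167 UMIs in WT A, WT B, null A and null B, so unthinned shares of cells are not at equal depth. In Ectoderm the medians were 32549, 30688, 40252 and 56757.

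Summed over cells and given as counts scaled to 1000000 UMIs per library and type (CPM), *Kdr* stood at 288 in WT A, 241 in WT B, 270 in null A and 337 in null B. Blood progenitors, the next type of the lineage, held 17.9 to 26.6 CPM and Nascent mesoderm, the type before it, held 26.1 to 82.1. *Etv2* was likewise high in this type, at 247, 189, 407 and 269 CPM, and low in Blood progenitors, at 17.9 to 40.0. *Tal1* did not separate the progenitors from their progeny, with 191 to 227 CPM here and 178 to 217 in Blood progenitors. Among 20 types with at least 5 cells in both WT libraries, the progenitors held rank 2 by mean WT level for *Kdr* and *Etv2* and rank 3 for *Tal1*, behind Embryo proper endothelium in each case. Types were named from the transcriptome itself, so these contrasts describe the label and were not tested.

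**Figure D1:**
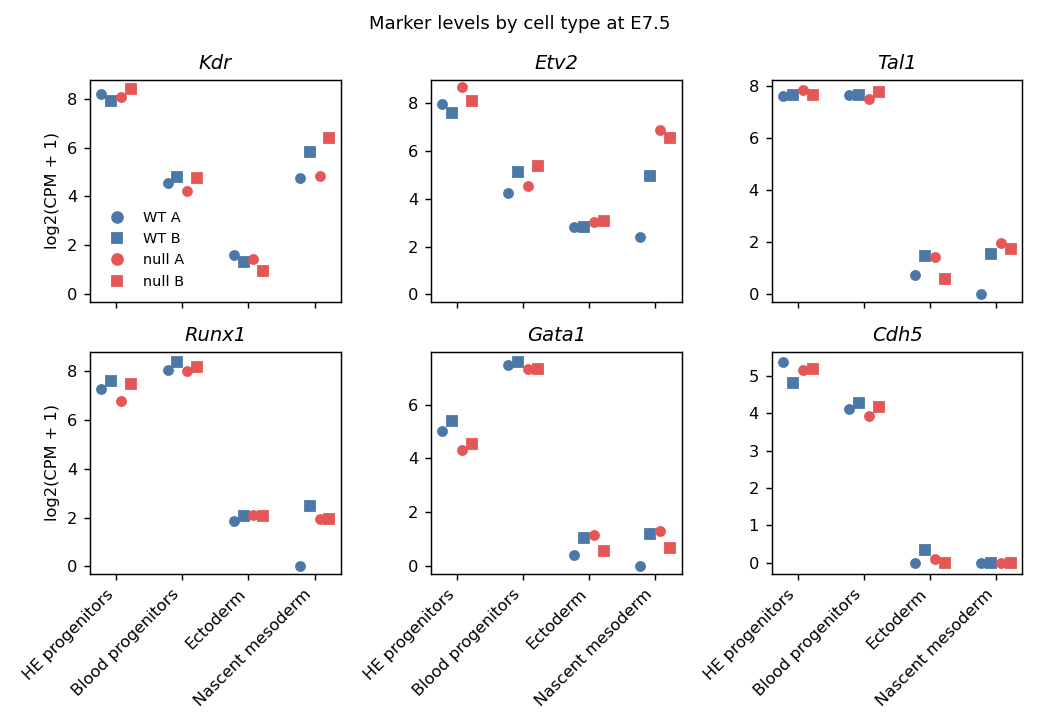
Level of 6 marker genes at E7.5 in Haematoendothelial (HE) progenitors, Blood progenitors, Ectoderm and Nascent mesoderm, as log2(CPM + 1), with 1 point per library (blue WT, red null, circle A, square B). *Kdr* and *Etv2* are highest in the progenitors, *Tal1* is level with Blood progenitors, and *Gata1* is between 18.8 and 40.5 CPM in the progenitors against 158 to 191 in Blood progenitors.

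Early blood factors were found in many of the progenitors, and red cell genes in fewer. *Runx1*, required for blood emergence, had a UMI in 62.5% to 87.0% of cells, and *Gata1*, the master factor of the red lineage, in 34.2% to 56.5%, against 97.0% to 100% of Blood progenitors. In Ectoderm of the same libraries the shares were 7.69% to 19.4% for *Runx1* and 1.10% to 4.38% for *Gata1*. *Klf1*, the erythroid factor downstream of GATA1, had 0, 5, 7 and 1 UMIs in all cells of WT A, WT B, null A and null B. *Alas2*, which starts haem synthesis in red cells, had a UMI in 21.7% to 30.3% of progenitors, 0% to 2.20% of Ectoderm and 56.7% to 83.3% of Blood progenitors. The embryonic globin *Hbb-bh1* was found in 42.1% of null A cells and in 4.35% to 12.5% of the other libraries. In Ectoderm of null A the share was 33.5%, and 5.56% to 14.3% in the other Ectoderm libraries, so this share moved with the library in both types and is at or near background. The other embryonic globin, *Hba-x*, was found in 37.5% of WT A (3 of 8 cells), 0% of WT B, 44.7% of null A and 4.35% of null B progenitors, against 7.69%, 0%, 41.8% and 0% of Ectoderm. The endothelial junction gene *Cdh5* had a UMI in 34.1% to 75% of progenitors and 0% to 0.826% of Ectoderm cells.

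Cells of the type spread more widely in *Etv2* than in *Tal1*. In WT B the quartiles of *Etv2* were 0.308 and 2.74 UMIs per 10000 around a median of 0.724, and the highest cell held 12.8. In null A the quartiles were 0.546 and 6.11 around a median of 1.70, and the highest cell held 15.5. The quartiles of *Tal1* were 1.09 and 2.57 in WT B and 1.47 and 2.87 in null A. At 10000 UMIs per cell, a blood marker (*Runx1*, *Itga2b* or *Gata1*) and an endothelial marker (*Cdh5*, *Pecam1* or *Tie1*) were seen together in 37.5% of WT A, 17.6% of WT B, 32.9% of null A and 34.8% of null B cells. A blood marker without an endothelial one was found in 52.9% of WT B cells and in 12.5% to 26.1% of the other libraries, so WT B stood apart. A marker of nascent mesoderm (*Mesp1*, *T* or *Mixl1*) was found in 27.6% to 48.2% of cells, most often in WT B. In thinned Ectoderm cells of WT B, *Mesp1* was found in 10.7% and *T* in 9.5%, against 1.10% to 4.12% and 0% to 5.67% in Ectoderm of the other libraries. In thinned progenitors, *Mesp1* was found in 0% of WT A, 20% of WT B, 5.26% of null A and 4.35% of null B, so it was highest in WT B in both types, whereas *T* was found in 37.5%, 36.5%, 23.7% and 34.8%. Across cells within a library, the summed level of the endothelial list rose with that of the specification factors, with Spearman's rho of 0.571 in 8 cells of WT A, 0.597 in 85 of WT B, 0.497 in 76 of null A and 0.549 in 23 of null B. Cells of a library share their embryos, preparation and sequencing, so these values only describe the cells.

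The transferred stage of most cells was the earliest that the atlas subset offered, E7.5, so this measure cannot show cells younger than that. In WT A 5 of 8 cells mapped to atlas stage E7.5, in WT B 79 of 85, in null A 61 of 76 and in null B 18 of 23. The mean mapped day was 7.66 ± 0.229 (SD over cells, n = 8) in WT A, 7.52 ± 0.0644 (n = 85) in WT B, 7.56 ± 0.128 (n = 76) in null A and 7.57 ± 0.135 (n = 23) in null B. Both null values lay between the WT values, and null minus WT was -0.0247 days with an exact two-sided permutation p of 1.0 over 6 arrangements, a design that cannot go below 0.333. Without WT A the difference was 0.0446 days.

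Whether null cells entered the type as often as host cells was then asked from cell numbers. At E7.5 the type made up 1.11% of WT A (95% exact Clopper-Pearson interval 0.479% to 2.17%), 4.77% of WT B (3.83% to 5.86%), 3.5% of null A (2.77% to 4.36%) and 6.39% of null B (4.09% to 9.43%). The intervals cover counting error only. Libraries of the same genotype differed more than the genotypes did, with 2.94% ± 2.59 (SD, n = 2) in WT and 4.94% ± 2.04 (SD, n = 2) in null. The E7.5 embryos were pooled in a large and a small class, and no library could be tied to a class. Spread between libraries of a genotype therefore cannot be told apart from embryo size. By edgeR's quasi-likelihood test on cell numbers, null over WT was 0.31 ± 0.94 (log2, SE) with an adjusted p of 0.980 over 27 types, of which 3 (11.1%) passed. In the fit over all 16 libraries the value was 0.64, and it was -0.15 without WT A and -0.36 without null A. In WT A and WT B 21.4% and 15.1% of cells were of extra-embryonic ectoderm and endoderm types, against 0.184% and 0% in null A and null B. Injected ESCs rarely enter these tissues, and their cells enlarge the denominator of every WT share. As a share of embryonic types only, the progenitors were 1.41% and 5.62% in WT and 3.51% and 6.39% in null. Among the cells of the blood line (Haematoendothelial progenitors, Blood progenitors and Erythroid), they were 15.4% of WT A, 55.6% of WT B, 30.8% of null A and 56.1% of null B, so each genotype held one library rich in progenitors and one with more of their progeny. At E7.5 alone null exceeded WT by 2.01 percentage points (exact two-sided permutation, 6 arrangements, p = 0.667, smallest possible 0.333). Averaged over E7.5 and E8.5, which held only 4 cells of the type at E8.5, null exceeded WT by 1.03 percentage points (exact two-sided permutation within stages, 36 arrangements, p = 0.389, smallest possible 0.0556). That difference in shares stayed above 0 when any 1 library was left out, at 0.113 to 1.94 percentage points, with the lowest value without WT A.

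**Figure D2:**
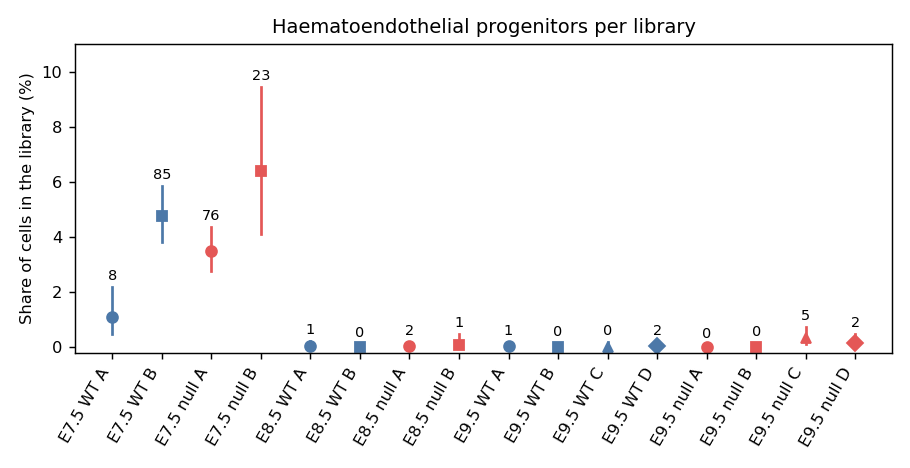
Share of Haematoendothelial progenitors among the cells of each of the 16 libraries in percent, with 95% exact binomial intervals as bars and the number of cells above each point (blue WT, red null). The E7.5 shares run from 1.11% to 6.39% with overlapping genotypes, and no later library exceeds 0.314%.

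After E7.5 the label was nearly empty. At E8.5 the libraries held 1 (WT A), 0 (WT B), 2 (null A) and 1 (null B) cells, and at E9.5 1, 0, 0 and 2 in WT A to D and 0, 0, 5 and 2 in null A to D. A count of 0 among the 3825 cells of E8.5 WT B allows a share of up to 0.0784% by the rule of 3 counts of the total, and up to 0.0964% by the exact interval used for the other shares. Of these 14 cells only 2 had UMIs of all 3 markers. One was in E8.5 null B, with 5, 13 and 4 UMIs of *Kdr*, *Etv2* and *Tal1*, and the other in E9.5 WT D, with 11, 64 and 18. In 6 of the 14 none of the 3 was found. The median depth of the 14 cells was 12599.5 UMIs. The transfer score, the share of 25 nearest atlas cells that carry the label, had a median of 0.46 over the 14 cells against 0.8 at E7.5. The markers thus bear out the name in few of these cells, whose median depth is low, and gene levels were not compared at these stages. The edgeR difference in cell number was 1.68 ± 1.23 (log2, SE, adjusted p 0.992) at E8.5 and 1.49 ± 1.09 (adjusted p 0.917) at E9.5, over all types without a minimum of cells. The labels name 4 embryo pools at E9.5 where the methods count 2 embryos, so libraries of a genotype may share an embryo, and this p-value over libraries is then too small. In the fit over all 16 libraries the E9.5 value was 1.62, but 0.15 without null C, which held 5 of the 7 null cells, and 2.28 without WT D. The E8.5 value was 1.70 there, but 3.68 without WT A and 0.59 without WT B. None of the 5 cells of E9.5 null C had a UMI of *Kdr*, *Etv2* or *Tal1*, and 3 of them had a tdTomato UMI.

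*Stat3* itself was checked first among the genes. In the progenitors it stood at 21.9 CPM in WT A, 22.1 in WT B, 2.25 in null A and 3.35 in null B, from 7, 59, 8 and 5 UMIs. All WT values lay above all null values, and *Stat3* fell by 3.02 ± 0.42 on the log2 scale (edgeR quasi-likelihood, Benjamini-Hochberg adjusted p = 0.00279). The same order was seen in 10 of the 12 other types with at least 5 cells in every E7.5 library. A UMI was present in 50% of WT A, 47.1% of WT B, 7.89% of null A and 17.4% of null B cells. The 3′ reads of a deleted gene can lie outside the deleted exons, so the level does not measure the intact transcript. *Stat3* (chr11:100885098-100939540, minus strand) overlaps the end of *Stat5a* (chr11:100859351-100885169, plus strand) by position. In WT cells *Stat3* was higher in the blood line than in other mesoderm. Its level was 30.4 and 31.1 CPM in Blood progenitors of WT A and WT B but 1.68 and 1.74 in Ectoderm and 6.31 and 5.50 in Lateral plate mesoderm, and the progenitors held rank 3 of 20 types by mean level, after ExE endoderm and Blood progenitors.

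Between null and WT progenitors at E7.5, 8577 genes were tested and 11 passed an adjusted p of 0.05 with an absolute log2 fold change over 1, which is 0.128% of the genes. Of these, 8 were lower in null (0.0933%) and 3 higher (0.035%). At an unadjusted p under 0.05 there were 332 genes, or 3.87%. The count was 2 with DESeq2, 11 with limma-voom and 23 without the filter on low counts. It was 15 without WT A, 1 without WT B, 25 without null A and 33 without null B, and WT B held 85 of the 93 WT cells. *Grb10* was the gene called without WT B, and *Grb10* and *Spink1* were those called with DESeq2, so the 9 other genes lost their call in both fits or could not be fitted.

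*Grb10* (chr11:11930508-12038683), an imprinted adaptor protein that restrains insulin and growth factor receptors, was nearly absent from null cells. Its level was 253 CPM in WT A and 184 in WT B, but 0.844 in null A and 1.34 in null B, where 3 and 2 UMIs remained. It fell by 7.59 ± 0.34 on the log2 scale (adjusted p = 4.67e-10) and was also called with DESeq2, limma-voom, RLE size factors and thinned cells. With 1 library left out, the log2 fold change was between -7.85 and -7.14. A *Grb10* UMI was present in 100% of WT A, 98.8% of WT B, 1.32% of null A and 8.70% of null B cells. In all 12 other types with at least 5 cells in every E7.5 library, both null values lay below both WT values. *Akr1e1* (chr13:4590750-4609174), an aldo-keto reductase, had the same pattern in all 12 other types and stood at 18.8, 12.4, 1.41 and 2.01 CPM in WT A, WT B, null A and null B. *Akr1e1* fell by 3.01 ± 0.55 (adjusted p = 0.0298), and it was also not called by limma-voom (adjusted p = 0.0582) or without null A (adjusted p = 0.167). *Pusl1* (chr4:155887879-155891781), a pseudouridine synthase-like gene, stood at 28.2, 39.7, 9.56 and 12.7 CPM and fell by 1.76 ± 0.31 (adjusted p = 0.0267). Null was below WT in 11 of the 12 other types for *Pusl1*.

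*Clic6* (chr16:92485736-92541243), a chloride intracellular channel gene, and *AC132623.2*, a gene for which the annotation used here has no entry, were lower in null cells of the blood line. *Clic6* stood at 25.03 and 28.9 CPM in WT A and WT B and at 2.81 and 4.02 in null A and null B and fell by 3.07 ± 0.39 (adjusted p = 0.00136). In Blood progenitors it was 26.6 and 23.7 in WT and 1.17 and 0.816 in null, whereas in WT Lateral plate mesoderm it was 0.485 and 1.73. Its highest WT levels were extra-embryonic, with 423 and 259 CPM in ExE endoderm and 120.2 and 160.2 in Visceral endoderm, and the progenitors held rank 4 of 20 types. The part of extra-embryonic RNA in the *Clic6* difference was not tested. *AC132623.2* stood at 15.6 and 16.9 CPM in WT A and WT B and at 0.844 and 0.669 in null A and null B and fell by 4.26 ± 0.57 (adjusted p = 0.00191). Blood progenitors and the progenitors held the highest mean WT levels of *AC132623.2* among the 20 types. Null libraries lay below WT in 5 of the 12 other types for each of these genes. With cells thinned to 10000 UMIs, *Clic6* was not called (adjusted p = 0.192), and *Stat3*, *AC132623.2*, *Rhox5*, *Pusl1* and *Akr1e1* were too low to be fitted.

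*Spink1*, a secreted trypsin inhibitor, and *Rhox5* (chrX:37804842-37808876), a homeobox gene of extra-embryonic tissue, were also lower in null progenitors. *Spink1* stood at 28.2, 33.0, 1.69 and 1.34 CPM in WT A, WT B, null A and null B and fell by 4.25 ± 0.43 (adjusted p = 7.68e-05). *Rhox5* stood at 15.6, 16.9, 1.41 and 0 CPM and fell by 3.98 ± 0.60 (adjusted p = 0.00643). Both null libraries also lay below both WT libraries in 10 of the 12 other types for *Spink1* and in 11 for *Rhox5*. In Ectoderm of the same WT libraries the levels were 19.12 and 36.7 for *Spink1* and 8.38 and 17.0 for *Rhox5*, lower than in the progenitors in WT A and close to them in WT B. The WT A progenitors were 8 cells with 319649 UMIs in all. Their levels of both genes thus rest on few UMIs, and the order in WT A was not tested. Gut tube held 665 and 1144 CPM of *Spink1* in WT A and WT B and 779.7 and 786 in null A and null B. Visceral endoderm held 8467 and 10069 CPM of *Spink1* in WT A and WT B, and ExE ectoderm held 1615 and 1605 CPM of *Rhox5*. Null A had 2 cells of each of these tissues and null B had none. The part of extra-embryonic RNA in both differences was not tested. Of 10 visceral endoderm markers 2 passed the low-count filter, and the summed level of the list was 929 and 822 CPM in WT and 529 and 544 in null progenitors, most of it *Apoe*. The defining marker *Ttr* had 1 and 43 UMIs in WT A and WT B and 0 in both null libraries. Of 10 extra-embryonic ectoderm markers 4 passed, with 59.4 and 47.2 CPM summed in WT and 30.9 and 24.1 in null, and *Elf5* had 0, 2, 0 and 0 UMIs.

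The genes that rose in null progenitors were 3. *Igf2* (chr7:142650766-142666816), the imprinted insulin-like growth factor, stood at 307, 200.5, 429 and 530 CPM in WT A, WT B, null A and null B and rose by 1.06 ± 0.17 (adjusted p = 0.0267). Without null B its value was 0.92, under the threshold of fold change, and without WT B it was 0.69. *Igf2* was higher in both null libraries in 7 of the 12 other types, among them Mesenchyme, with 371 and 351 CPM in WT against 769 and 684 in null, while Ectoderm overlapped at 17.4 and 9.10 against 16.7 and 8.36. *Hist1h4d* (chr13:23581598-23582735), a replication-dependent histone H4 gene whose near-identical copies can share reads, stood at 28.2, 43.1, 97.6 and 103 CPM and rose by 1.35 ± 0.21 (adjusted p = 0.00840). It was higher in null in 10 of the 12 other types. *Pmp22* (chr11:63128982-63159547), a membrane protein of myelin and mesenchyme, stood at 43.8, 28.9, 79.6 and 66.3 CPM and rose by 1.25 ± 0.24 (adjusted p = 0.0428). Among the 12 other types it was higher in null in 1, lower in 1 and overlapping in 10, and its level in Mesenchyme was 1019 and 848 CPM in WT against 911 and 772 in null. *Pmp22* was also not called on thinned cells or without null A. With the fold change threshold removed, 15 genes (0.175%) passed, the added genes being *Glo1* and *Apoe*, lower in null, and *Psmd8* and *Ubb*, higher.

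**Figure D3:**
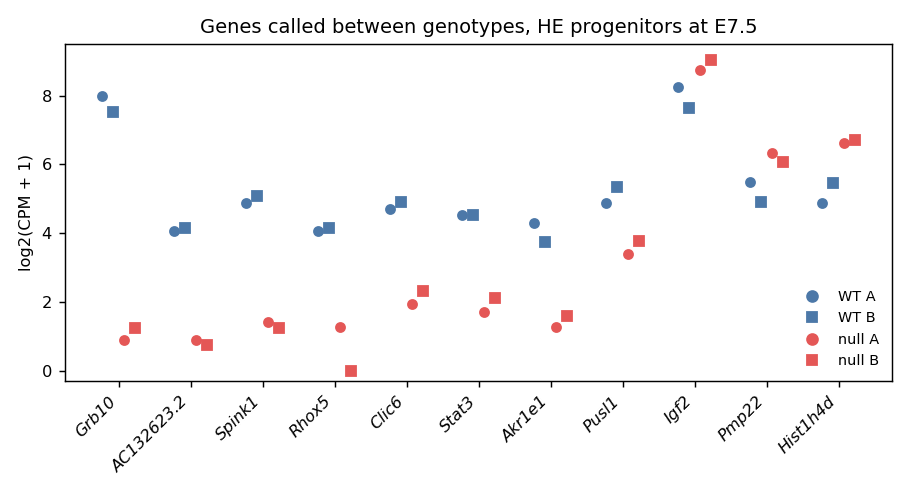
Level of the 11 genes called between genotypes in Haematoendothelial progenitors at E7.5, as log2(CPM + 1), with 1 point per library (blue WT, red null, circle A, square B), ordered by fold change. WT and null libraries do not overlap for any of the 11, which the calls favour, and over all 8577 genes tested 2834 (33%) do not overlap either.

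**Figure D4:**
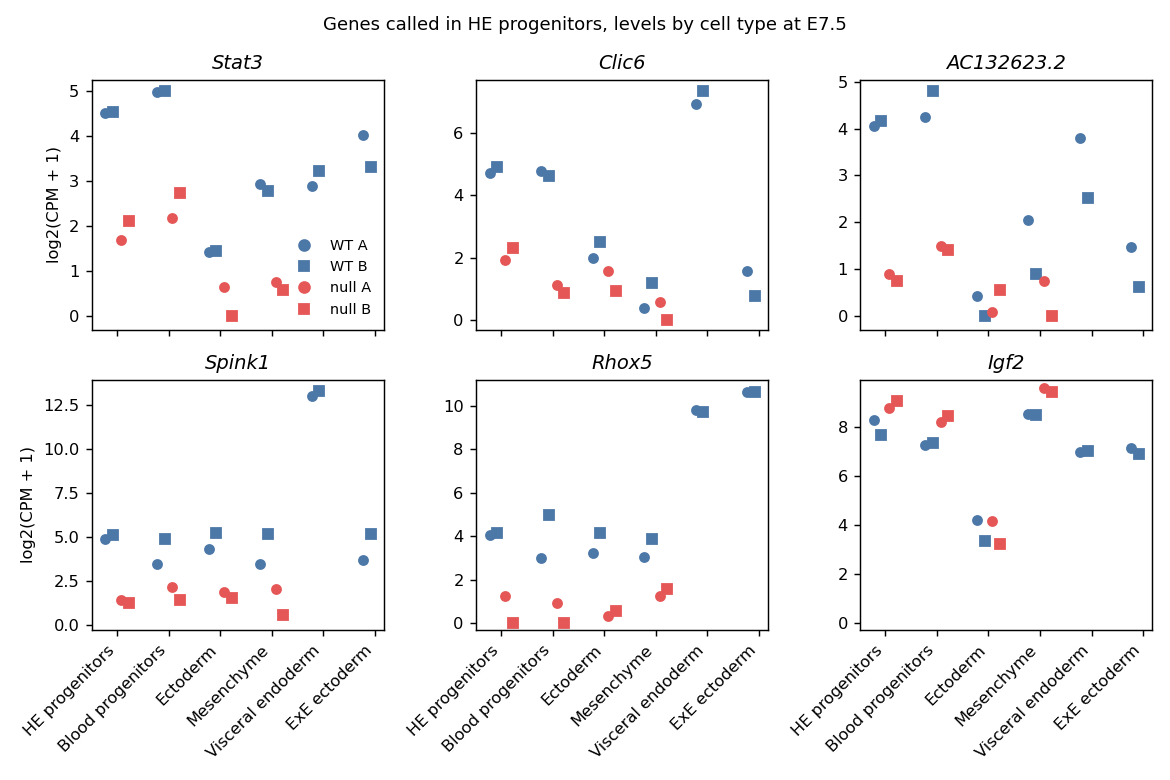
Level of 6 of the called genes in the progenitors and 5 other E7.5 types, as log2(CPM + 1), with 1 point per library of at least 5 cells (null libraries have fewer in Visceral endoderm and ExE ectoderm, so only WT is drawn there). *Spink1* peaks in Visceral endoderm (8467 and 10069 CPM) and *Rhox5* in ExE ectoderm (1615 and 1605 CPM), while *Stat3*, *Clic6* and *AC132623.2* are higher in WT progenitors and Blood progenitors than in WT Ectoderm or Mesenchyme.

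Genes of the program that defines the type were compared next. Cells of both genotypes entered the type through their transcriptome, so the label itself limits how far these genes can differ. With 0.128% of all genes called, less than 1 call would fall in lists of this size at that share, and a count of 0 says little about a list. Of 20 haematoendothelial specification factors 16 were tested and 0 were called, with a median log2 fold change of 0.06 (10 above 0 and 6 below), beside a median of 0.01 over all genes tested. *Etv2* had the smallest p of them. Both null values (407 and 269 CPM) lay above both WT values (247 and 189), with a log2 fold change of 0.75 ± 0.19 and an adjusted p of 0.347, and it was called only without null B, at 1.02 (adjusted p = 1.29e-07). Without the low-count filter its adjusted p was 0.000214 at a log2 fold change of 0.77, under the fold threshold. *Tal1* was at 191 and 196 CPM in WT against 227 and 197 in null (0.17 ± 0.14, adjusted p = 1.00). *Lmo2*, the bridging partner of TAL1, was at 463 and 252 CPM in WT and 289 and 373 in null, so WT A and WT B differed more than the genotypes. *Runx1* was at 153 and 191 CPM in WT and 108 and 174 in null, with overlapping groups.

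Of 23 endothelial receptors and junction genes 20 were tested and 0 called, beside the same 0.128%, with a median of 0.09. *Kdr* gave 0.27 ± 0.15 (adjusted p = 1.00) and *Cdh5* gave 0.27 ± 0.26, from 40.7 and 27.4 CPM in WT and 35.2 and 35.5 in null. The lymphatic and early vessel receptor *Flt4* had 9.39 and 7.87 CPM in WT and 18.0 and 10.7 in null (0.94 ± 0.40, adjusted p = 1.00). For the VEGF and FGF ligands and receptors 12 of 20 were tested and 0 called, for the BMP pathway 16 of 20 and 0, and for the Notch pathway 7 of 18 and 0.

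In lists of the next stage 0 genes were called, beside 0.128% of all genes, and over all genes tested 4439 values were above 0 and 4138 below. Of 20 primitive erythroid genes 12 were tested, 2 above 0 and 10 below, with a median of -0.35, and of 20 blood progenitor and megakaryocyte genes 8 were tested, 1 above and 7 below, with a median of -0.31. The summed level of the latter list was 209.6 CPM in WT A against 108 in WT B, 102 in null A and 79.0 in null B, so WT A, with 8 cells, stood apart from the other 3 libraries. *Gata1* stood at 31.3 and 40.5 CPM in WT and 18.8 and 22.1 in null, with no overlap, a log2 fold change of -0.90 ± 0.27 and an adjusted p of 0.570. *Spi1*, the myeloid factor PU.1, was at 43.8 and 10.5 CPM in WT and 5.62 and 6.03 in null (-1.48 ± 0.55, adjusted p = 1.00). Of 20 mesoderm genes 13 were tested and 0 called. The early mesoderm factor *Mesp1* was at 6.26 CPM in WT A, 28.1 in WT B, 6.75 in null A and 6.03 in null B, so WT B alone stood high, with a log2 fold change of -1.83 ± 0.41 (adjusted p = 0.152). *Mesp1* was called without WT A, without null A, without null B and without the low-count filter. WT B also held *Mesp1* at 22.5 CPM in Ectoderm, against 1.86 to 4.02 in Ectoderm of the other libraries. S phase, G2 and M phase and glycolysis lists (20, 20 and 18 genes, all tested) had 0 calls and medians of 0.05, 0.00439 and 0.05.

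In the JAK-STAT pathway 16 of 28 genes were tested and *Stat3* alone was called, beside 0.128% of all genes. There were 8 genes above 0 and 8 below, with a median of -0.03. At an unadjusted p under 0.05, 5 of the 16 were lower in null and 1 higher, against 160 lower and 172 higher of all 8577 genes. Those lower were *Stat3*, *Stat5a*, *Stat5b*, *Socs2* (-0.87 ± 0.32) and *Pim2* (-1.48 ± 0.47), and the higher one was *Pim1* (0.53 ± 0.21). *Stat5b*, a related STAT beside *Stat3* on chromosome 11, stood at 18.8 and 19.5 CPM in WT and 5.62 and 9.37 in null (-1.44 ± 0.38, adjusted p = 0.347). *Stat5a* had 5 and 13 UMIs in WT and 4 and 0 in null (-2.96 ± 0.90, adjusted p = 0.617). The STAT3 feedback inhibitor *Socs3* was too low to test, with 0, 4, 2 and 2 UMIs. The kinase gene *Jak1* (103 and 65.6 CPM in WT, 82.7 and 64.9 in null) and the gp130 gene *Il6st* (40.7 and 25.5 against 23.6 and 27.4) overlapped.

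Imprinted genes held 2 of the 11 calls, *Grb10* and *Igf2*, with 18 of 20 tested, beside 0.128% called over all genes. The authors left imprinted genes out of their own tests of expression. Of the 18, 12 were above 0 and 6 below, with a median of 0.28. *H19*, the maternally expressed RNA next to *Igf2*, was at 1095 and 727 CPM in WT but at 136 in null A and 3.35 in null B. Both null values lay below both WT values and far from each other, with a log2 fold change of -3.43 ± 1.43 and an adjusted p of 1.00. *H19* was called without null A and also without null B. *Impact*, a paternally expressed translation regulator, stood at 25.03 and 35.2 CPM in WT and 66.4 and 82.3 in null and missed the threshold (1.17 ± 0.23, adjusted p = 0.0578). It passed without either null library. *Peg3* (413 and 455 against 430 and 478) and *Mest* (491 and 404 against 396 and 471) overlapped between genotypes.

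**Figure D5:**
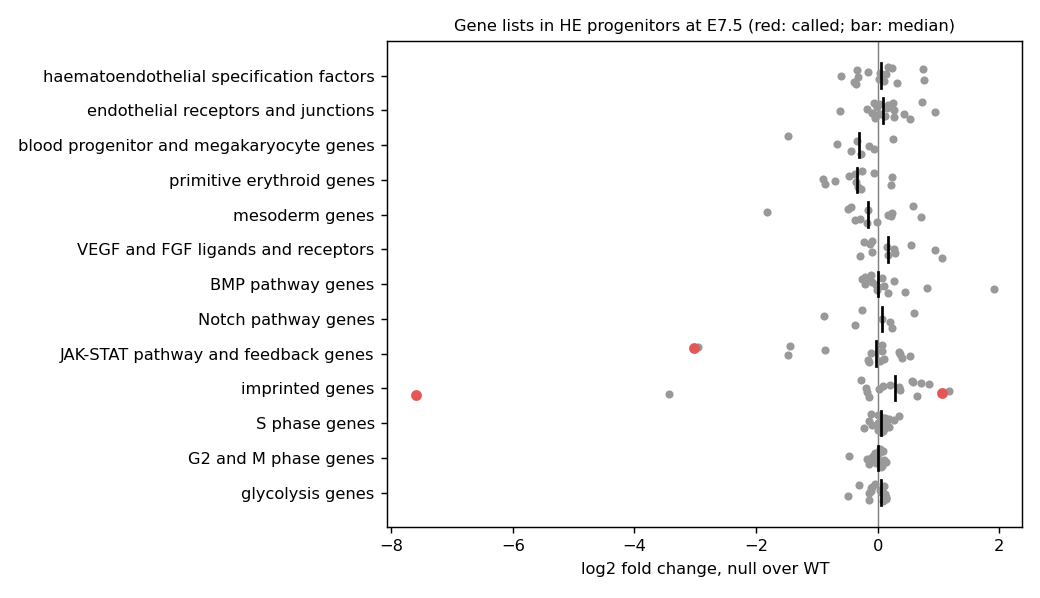
Log2 fold change of null over WT at E7.5 for each tested gene of 13 gene lists in Haematoendothelial progenitors, with 1 point per gene (red where called) and a bar at the list's median. The only red points are *Stat3*, *Grb10* and *Igf2*, and list medians lie between -0.35 and 0.28.

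Whether these differences belonged to the progenitors more than to their progeny was tested as the effect in the progenitors minus the effect in Blood progenitors, with a term per library. Over 9030 genes, 0 passed in edgeR (0%), 0 in DESeq2 and 0 in limma-voom, with 287 genes at an unadjusted p under 0.05. Without WT A, WT B, null A and null B the counts were 5, 11, 11 and 3. The 5 genes of smallest p, none called, were *Phlda2*, *Cd59a*, *Cst3*, *L1td1* and *Amotl2*. For *Stat3* the difference between types was -0.20 and for *Grb10* -0.42 ± 0.81 (adjusted p = 1). For *Clic6*, *Igf2*, *Etv2* and *Gata1* the adjusted p was also 1. This does not show that the effects were equal.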

How the data were processed

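Chimeric embryos were profiled with 10x 3′ single-cell RNA sequencing. The authors mapped reads to mm10 with Cell Ranger, counted UMIs with tdTomato added to the annotation, and filtered cells on UMIs, genes, mitochondrial and ribosomal RNA. They deposited raw counts per gene and cell, which carry no normalization, with the mitochondrial percent of each cell, a doublet score, and the transferred label with its score as the fraction of neighbours that agree. Of 41832 cells in the matrix, 3395 called doublets were left out, as were 596 cells sorted as WT in which tdTomato was detected (3 of them progenitors). The deposited counts hold the cells of all libraries together, so there was no per-sample column to match. The 4 E7.5 libraries held 20682659 to 90343765 UMIs, of which the progenitors held 319649 (WT A), 2668357 (WT B), 3556011 (null A) and 1493672 (null B). Of the 206 progenitors, 3 had a barcode that also occurs in another library, none of them shared between progenitors.

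Groups came from stage and sort gate. Library names match no sample title, so libraries carry no embryo pool, and p-values measure only the spread between libraries. At E7.5 that spread cannot be told apart from the large and small classes of embryos. UMI counts were summed per library and type. After 8178 predicted, mitochondrial, ribosomal, globin, Y-linked, *Xist*, *Tsix* and tdTomato genes were left out, genes were filtered with filterByExpr and tested with edgeR 4.0.16 (TMM, robust quasi-likelihood, Benjamini-Hochberg). Imprinted genes, which the authors left out of such tests, were kept. Genes were called at an adjusted p under 0.05 and an absolute log2 fold change over 1. DESeq2 1.42.0 and limma 3.58.1 (voom) served as alternatives. The intended minimum of over 15 cells left 2 null libraries and 1 WT library, so libraries of at least 5 cells were used, 2 against 2. Cell numbers were tested with edgeR over types of at least 20 cells. Fits were also run on simulated counts with planted changes. These had the same spread for all genes and no shift of single libraries, so they do not establish error rates in these data. Gene positions are GENCODE vM21 on GRCm38. Named genes were the 3 markers, *Stat3*, called list members, the largest called changes, and otherwise the 5 of smallest p. The members, markers and lists were chosen with earlier results of these data known.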

Additional observations from a re-analysis of the deposited data

Results flagged for a closer look

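*Phlda2*, an imprinted growth-restraining gene, differed in its genotype effect between the progenitors and Blood progenitors at E7.5 by a test of the difference itself. The effect in the progenitors minus that in Blood progenitors was 0.90 ± 0.15 on the log2 scale (edgeR quasi-likelihood, adjusted p = 0.0472 over 9030 genes), under the fold change threshold of 1. In the progenitors *Phlda2* stood at 563 and 688 CPM in WT A and WT B and at 759 and 668 in null A and null B, which overlap. In Blood progenitors it stood at 143 and 160 in WT and at 109 and 66.1 in null, with both null libraries lower. Among the 12 other types with at least 5 cells in every E7.5 library, both null libraries were lower in 6, Blood progenitors included, and higher in 0.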

How the results depend on the processing

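No paired analysis was possible because library names match no sample title, so no library has an embryo pool or a replicate number of the labels. The count of 11 called genes became 2 with DESeq2, 23 without the filter on low counts and 5 with cells thinned to 10000 UMIs (5413 genes tested), and 1 to 33 when 1 library was left out, with a lone library then assumed to vary like the others. It was 11 with limma-voom or RLE size factors, 14 with tdTomato-bearing WT cells kept and 15 without the fold change threshold. A fit meant to leave out tdTomato-free null cells removed none and repeated the reported fit, although only 74 of 76 null A progenitors had a tdTomato UMI. That choice was therefore not tested for genes or cell numbers. It was applied to the mapped stage, where null minus WT was -0.0239 days. For the count of 0 in the comparison with Blood progenitors, the values were 2 without the filter, 1 without the fold change threshold and 3 to 11 without 1 library. The reported E7.5 difference in cell number, 0.31 (log2), came from the E7.5 libraries alone. Libraries were left out in the fit over all 16 libraries instead, where it was 0.64. There it ranged from -0.15 to 2.07 without each WT library and from -0.36 to 1.07 without each null library. The difference in mapped stage ranged from -0.0940 to 0.0446 days without 1 library. The cause of these shifts was not tested. Among 14 named genes, 160 alternative values held 137 with the call of the reported fit, 22 that lost it, 1 that gained it and 0 of opposite direction. The 160 include the fit without a fold change threshold, which cannot lose a call, and the fit that removed no tdTomato-free cells. They also include *Kdr*, *Etv2* and *Tal1*, not called in the reported fit, and leave out values that could not be fitted. The 137 therefore does not measure how stable the 11 calls were. Fits over E7.5 and E8.5 together, and gene tests at E8.5, were not run, because no E8.5 library held 5 cells. Depth limits WT A most, with 8 progenitors.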
